A study of Mus musculus with 10 samples.

Results

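Cell cycle and DNA replication genes were followed in 10 mouse melanomas, 5 labelled Fes knockout (Fes KO) and 5 labelled wild type (Fes WT). The 43 members were chosen by gene symbol out of 47643 genes in the deposited tables. They were chosen from knowledge of the cell cycle, but with earlier results of these data known. All 43 were found once and passed the filter on low counts. They comprise 5 cyclin D genes and partner kinases of G1, 18 genes of the G1 to S transition and DNA synthesis (called S phase members) and 20 genes of G2 and mitosis (called mitotic members). Per the labels, every mouse carried 1 copy of the Tyr::CreERT2 transgene and 1 copy of BRafV600E, and the groups differed in being Fes-/- or Fes+/+. The tyrosinase promoter limits the tamoxifen-dependent recombinase largely to the melanocyte lineage, so Braf activation was aimed at those cells, and tumours were started with 4OH-Tamoxifen at 5 mM on back skin. The age and the strain background of the mice are not given in the labels, nor is whether each tumour came from a different animal. RNA came from whole tumours, so a level mixes tumour cells with skin, muscle, vessels and immune cells, and fewer dividing cells cannot be told apart from less RNA per dividing cell.

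Levels are counts scaled to a common library total (CPM). Differences are log2 fold changes of Fes KO over Fes WT from edgeR's quasi-likelihood fit over all 14816 genes that passed the filter. The standard error (SE) beside them was derived from the fold change and the test statistic of that fit. Total counts ranged from 13226783 to 16599120 per tumour. Fes itself was at 29.2 to 57.5 CPM in the Fes KO tumours and 72.5 to 102 CPM in the Fes WT tumours. The ranges did not overlap, but reads remained in every Fes KO tumour. The log2 fold change of Fes was -1.06 (SE 0.19, edgeR adjusted p = 0.0846), which does not pass. Of 8 melanocyte lineage markers, all were detected in 8 tumours, 6 in Fes KO 5 and 7 in Fes WT 1. Sox10, a transcription factor of the lineage, made up most of their sum in 9 tumours, at 461 to 970 CPM, with 392 CPM in Fes KO 2. The pigment genes Tyr, Tyrp1, Mlana and Pmel were low, each at no more than 6.66 CPM outside Fes KO 2, where Tyr was at 51.1 CPM and Tyrp1 at 71.3 CPM. The pigment gene Dct was higher, with 325 CPM in Fes KO 2, 29.9 to 47.0 CPM in Fes KO 1, 3 and 4, only 1.90 CPM in Fes KO 5, and 6.78 to 21.4 CPM among the 5 wild type tumours. Fes KO 2 and Fes WT 3 stand apart from the other tumours by hair and muscle transcripts, which is taken up below with the mitotic genes. Xist, the RNA of the inactive X chromosome, lay between 670.1 and 719.8 CPM in Fes KO 1, Fes KO 2 and Fes WT 5. Elsewhere its highest value was 0.678 CPM.

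A dividing cell passes from G1, where cyclin D and its kinases inactivate the Rb proteins, into S phase, where E2F factors switch on replication genes and each origin is licensed and fired once. It then enters mitosis, for which a later wave of genes is switched on by the MuvB complex with B-Myb and FoxM1. Resting cells hold most of these genes off through Rb and E2F and through the DREAM complex, which binds E2F sites and the cell cycle genes homology region (CHR). In melanoma the BRAF pathway drives cyclin D1, and MKI67 staining is a common measure of how many cells divide.

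Promoter sequences are shown first, because the S phase and mitotic members differ in the letters they hold near their start. RefSeq windows (GRCm38.p6) of 250 bases before to 50 after the start were matched for 33 of the 43 members, 3 of G1, 15 of S phase and 15 mitotic. Those of Ccna2, Ccnd1, Ccnd2, Ccne2, Mcm4, Gmnn, Foxm1, Aurkb, Tpx2 and Kif20a were not matched. Mcm7, Prc1 and Ccnd3 have 2 windows each, and a gene was counted where any of its windows held the letters, here and over all genes. E2F letters (TTTCGCGC, TTTGGCGC or GCGGGAA, on either strand, where the first and second can overlap) stood in 8 of 15 S phase genes, 53.3%, and in 1 of 15 mitotic genes, Cdk1, against 6.1% of the 27025 genes in the table. The CHR letters TTTGAA, on either strand, stood in 11 of 15 mitotic genes, 73.3%, and in 1 of 15 S phase genes, Mcm2, against 20.2% of all genes. With the 250 bases before the start alone, 6 S phase genes held E2F letters and 7 mitotic genes CHR letters, against 5.07% and 18.3% of all genes. CCAAT, the letters of the NF-Y box, stood in 10 of 15 S phase and 13 of 15 mitotic genes, against 41.1% of all genes. A match is a description of letters and shows no binding.

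The sequences printed here are the 160 bases before the start of 3 S phase and 3 mitotic members. They were taken from members whose 160 bases held the letters of their class and overlapped no annotated exon. No other mitotic member met this rule. They run 5′ to 3′ on the gene's strand in RefSeq's GRCm38.p6, with E2F letters in capitals in the first 3 and CHR letters in capitals in the last 3.

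Mcm6, chr1:128359706-128359865, - strand: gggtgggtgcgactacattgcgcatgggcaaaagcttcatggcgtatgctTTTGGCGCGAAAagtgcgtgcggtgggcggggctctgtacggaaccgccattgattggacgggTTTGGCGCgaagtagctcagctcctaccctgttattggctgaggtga

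Mcm5, chr8:75109349-75109508, + strand: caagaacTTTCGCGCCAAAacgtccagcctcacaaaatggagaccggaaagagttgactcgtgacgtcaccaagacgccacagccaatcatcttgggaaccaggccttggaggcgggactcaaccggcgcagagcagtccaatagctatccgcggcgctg

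Rrm1, chr7:102441535-102441694, + strand: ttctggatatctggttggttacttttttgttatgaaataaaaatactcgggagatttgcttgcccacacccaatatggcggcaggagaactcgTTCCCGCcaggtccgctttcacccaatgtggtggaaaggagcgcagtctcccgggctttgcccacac

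Top2a, chr11:99024190-99024349, - strand: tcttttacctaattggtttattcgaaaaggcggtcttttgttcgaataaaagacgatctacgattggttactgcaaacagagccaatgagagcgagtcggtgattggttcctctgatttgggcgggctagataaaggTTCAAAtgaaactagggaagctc

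Kif11, chr19:37376222-37376381, + strand: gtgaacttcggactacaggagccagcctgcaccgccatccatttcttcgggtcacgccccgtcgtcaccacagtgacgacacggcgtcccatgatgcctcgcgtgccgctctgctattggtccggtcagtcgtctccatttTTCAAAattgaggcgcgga

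Mki67, chr7:135716380-135716539, - strand: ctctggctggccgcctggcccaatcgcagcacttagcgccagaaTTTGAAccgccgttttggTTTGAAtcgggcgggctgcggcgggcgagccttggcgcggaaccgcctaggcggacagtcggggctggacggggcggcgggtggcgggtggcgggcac

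In Mcm6, 2 overlapping E2F matches begin 110 and 106 bases before the start and another lies at 47. In Mcm5 an overlapping pair begins at 153 and 149 bases, and the Rrm1 match begins at 67. The CHR letters begin 23 bases before the start in Top2a (and at 179, before the printed bases) and 19 in Kif11, and at 116 and 98 in Mki67. These sequences describe the genes and were not set against their levels.

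No member passed the test between Fes KO and Fes WT. In edgeR, 0 of 43 members had an adjusted p below 0.05, where 26 of 14816 genes (0.175%) did. Fes itself did not pass in the same fit, so the lack of calls does not show that the members were unchanged. At an unadjusted p below 0.05, 1 member was higher in Fes KO, against 4.23% of all genes, and 0 were lower, against 5.39%. DESeq2 called 0 members with 1.7% of its genes called, and limma-voom 0 with 0.776%. The fitted values lay above 0 for 40 of 43 members with a median of 0.41, where 52.4% of all tested genes lay above 0 with a median of 0.01. The 3 members below 0 were the cyclin D genes Ccnd1, Ccnd2 and Ccnd3. By class the median was 0.56 for S phase members, 0.43 for mitotic members and -0.08 for the 5 G1 genes. The members were chosen with earlier results of these data known and were measured in the same tumours. These counts are therefore a description and not 43 separate observations.

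**Figure D1:**
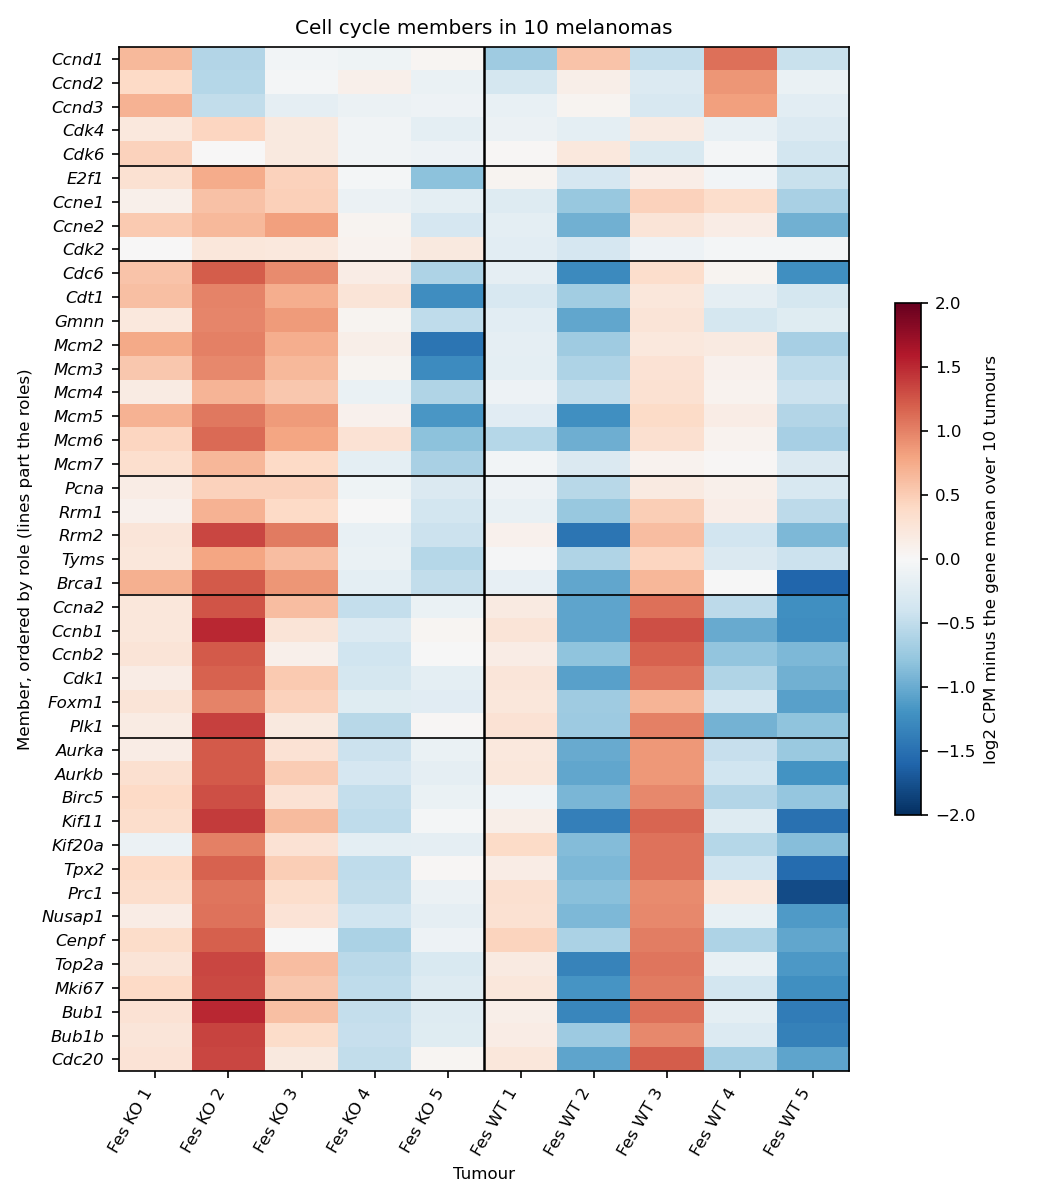
Level of each of the 43 members (rows, by role) in each tumour (columns), as log2 CPM minus the gene's mean over the 10 tumours (red higher, blue lower). Fes KO 2 is highest in 17 of 18 S phase and 19 of 20 mitotic members, Fes WT 3 is raised in the mitotic rows, and the cyclin D rows follow another order, with Fes WT 4 highest.

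**Figure D2:**
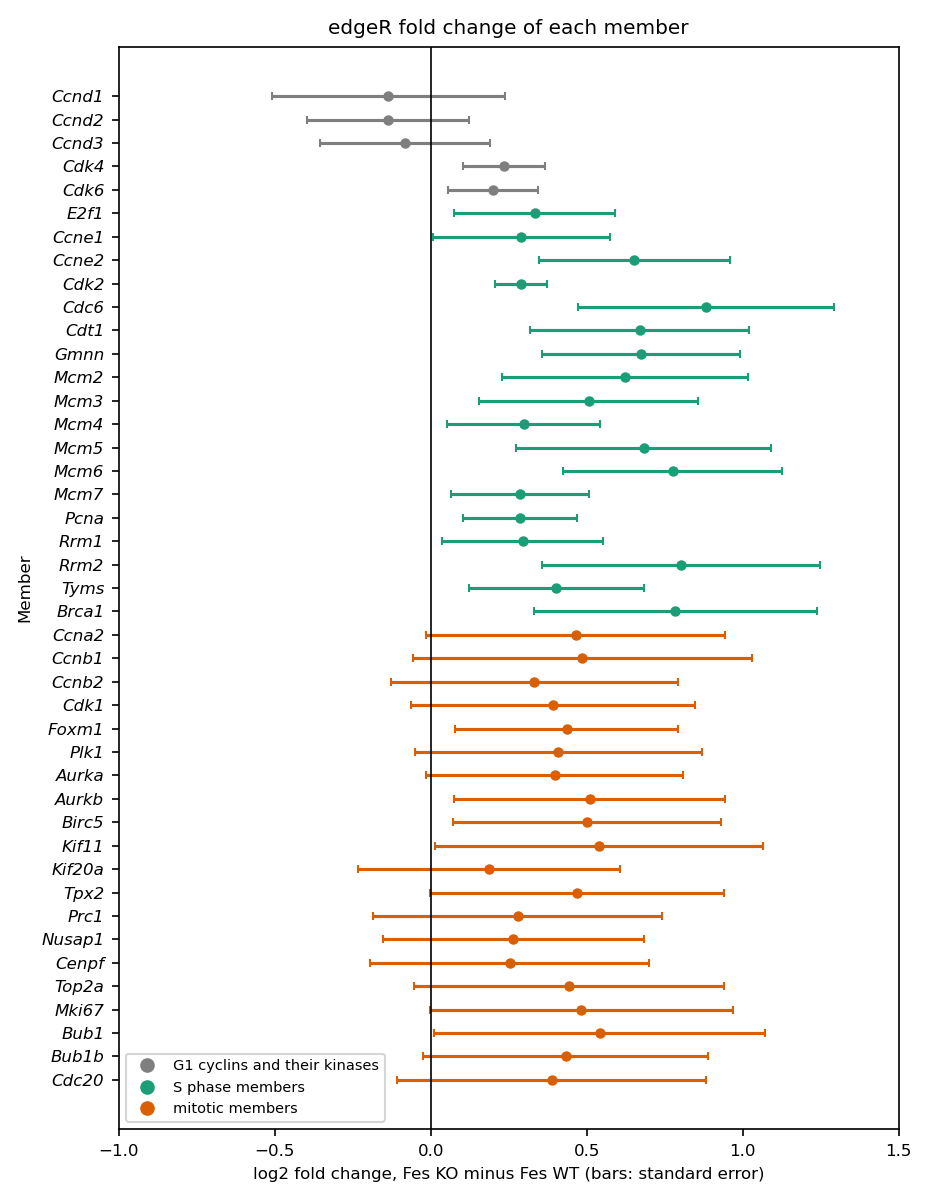
Log2 fold change, Fes KO minus Fes WT, of each member with the standard error derived from its test (edgeR, 5 tumours a group), by class. Values run from -0.14 for Ccnd2 to 0.88 for Cdc6, and the standard errors of the mitotic members are wider than those of Cdk2, Cdk4 and Cdk6.

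The cyclin D genes and Cdk4 were the most abundant members per length of exon. Ccnd1 (ENSMUSG00000070348, chromosome 7, 144929931 to 144939925, GRCm38), the D cyclin that BRAF signalling drives, had a mean of 221 CPM per kb of exon, followed by Ccnd2 at 62.3, the kinase gene Cdk4 at 56.1 and Ccnd3 at 47.1 CPM per kb. The next member outside G1 was Pcna at 24.5 CPM per kb. Ccnd1 was at 1501, 639, 921, 902 and 989 CPM in Fes KO 1 to 5, and at 587, 1417, 688, 2048 and 702 CPM in Fes WT 1 to 5. Fes WT 4, Fes KO 1 and Fes WT 2 were highest, Fes WT 1 was lowest, and the groups overlapped. Its log2 fold change was -0.14 (SE 0.37, edgeR adjusted p = 0.929). Without Fes WT 4 it was 0.22, so that tumour set the sign.

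Ccnd2 was at 744, 377, 545, 607 and 516 CPM in Fes KO 1 to 5, and at 443, 608, 465, 1036 and 516 CPM in Fes WT 1 to 5. Ccnd3 was at 639, 280.0, 351, 366 and 370.2 CPM in Fes KO 1 to 5, and at 356, 409.6, 318, 699.9 and 342 CPM in Fes WT 1 to 5. Both showed the pattern of Ccnd1, with Fes WT 4 highest and Fes KO 1 second, and Fes KO 2 was the lowest tumour for both. Their log2 fold changes were -0.14 (SE 0.26) and -0.08 (SE 0.27), which without Fes WT 4 became 0.13 and 0.17. Cdk4, a kinase partner of the D cyclins, did not follow them. It was at 208, 241, 207, 171 and 158 CPM in Fes KO 1 to 5, and at 165, 157, 204, 162 and 148 CPM in Fes WT 1 to 5, with Fes KO 2 highest, and had 0.24 (SE 0.13, edgeR adjusted p = 0.595). The other partner, Cdk6, ranged from 138 to 247 CPM with 0.20 (SE 0.14).

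Of the genes that start S phase, Cdk2 alone separated the groups. Cdk2 (ENSMUSG00000025358, chromosome 10, 128697939 to 128705031), the kinase partner of cyclins E and A, was at 47.7, 55.5, 55.0, 49.6 and 54.1 CPM in Fes KO 1 to 5. In Fes WT 1 to 5 it was at 41.1, 37.4, 43.9, 46.1 and 46.0 CPM. Every Fes KO tumour lay above every Fes WT tumour, with means of 52.4 ± 3.49 and 42.9 ± 3.68 CPM (SD, 5 tumours each). This is 1 of 43 members, where 0.783% of tested genes lay wholly above, and 0 members lay wholly below, where 1.11% of genes did. The log2 fold change was 0.29 (SE 0.08, edgeR adjusted p = 0.313), which does not pass. It was 0.24 to 0.32 with 1 tumour left out, and the adjusted p was 0.0571 in DESeq2 and 0.082 in limma-voom. Cdk2 had the lowest spread of the members, a within-group SD of 0.11 on the log2 scale against a median of 0.71 over the 43 members and 0.29 over all tested genes. The melanosome gene Pmel overlaps it on the opposite strand with 728 counts in all against 7286, and was itself highest in Fes KO 2, at 19.8 CPM. Since the strand setting of the counting is not stated in the labels, reads of the shared stretch cannot be told apart.

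The other starters varied more. E2f1, the transcription factor of the replication genes, ranged from 9.18 to 27.1 CPM with 0.33 (SE 0.26), and the cyclin E genes Ccne1 and Ccne2 had 0.29 (SE 0.28) and 0.65 (SE 0.31). Fes KO 2 was highest for E2f1 and Ccne1 and Fes KO 3 for Ccne2.

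The 9 licensing genes load and restrain the replicative helicase, and all 9 had fitted values above 0, with a median of 0.67. Mcm6, a subunit of the MCM helicase with the lowest p of this role, was at 57.8, 94.2, 74.1, 52.9 and 24.5 CPM in Fes KO 1 to 5, and at 29.0, 22.0, 53.7, 45.4 and 27.4 CPM in Fes WT 1 to 5. Fes KO 1, 2 and 3 lay above every Fes WT tumour, while Fes KO 5 lay below the Fes WT median. Its log2 fold change was 0.78 (SE 0.35, edgeR adjusted p = 0.523). Mcm4, the helicase subunit with the highest level here, was at 52.0, 75.0, 67.4, 42.5 and 30.8 CPM in Fes KO 1 to 5, and at 43.6, 33.2, 57.4, 49.1 and 34.5 CPM in Fes WT 1 to 5. The difference was smaller, 0.30 (SE 0.25, edgeR adjusted p = 0.726), and here Fes KO 5 was the lowest of all 10 tumours. Cdc6, which loads the helicase onto origins, had the largest fitted value of the 43 members, 0.88 (SE 0.41, edgeR adjusted p = 0.531). It was at 8.45, 13.2, 10.9, 6.28 and 3.72 CPM in Fes KO 1 to 5, and at 5.03, 2.35, 7.28, 5.92 and 2.44 CPM in Fes WT 1 to 5, a 5.59-fold range between Fes KO 2 and Fes WT 2.

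Fes KO 5 had low licensing genes in contrast to its mitotic genes. It was the lowest tumour for 6 of 18 S phase members, namely E2f1, Cdt1, Mcm2, Mcm3, Mcm4 and Mcm7. Mcm2 was at 11.2 CPM there, where the rest of Fes KO had 33.4 to 61.9 CPM and Fes WT 18.8 to 35.6 CPM. Fes KO 5 was the lowest tumour for 0 of 20 mitotic members. Mcm2, Mcm3, Mcm5 and Mcm7 had log2 fold changes of 0.62, 0.51, 0.68 and 0.29. Cdt1, the loading factor, had 0.67 (SE 0.35) and Gmnn, which encodes its inhibitor geminin, 0.67 (SE 0.32).

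All 5 genes of nucleotide supply, the clamp and repair also had Fes KO 2 highest. Pcna, the sliding clamp of the replicative polymerases, was at 63.8, 78.8, 78.5, 54.2 and 47.0 CPM in Fes KO 1 to 5, and at 53.3, 39.0, 64.8, 61.5 and 45.9 CPM in Fes WT 1 to 5. Fes KO 2 and Fes KO 3 were highest, Fes WT 2 was lowest, and the log2 fold change was 0.28 (SE 0.18, edgeR adjusted p = 0.642). Rrm2 encodes the cell cycle regulated subunit of ribonucleotide reductase and was at 25.3, 54.2, 44.1, 19.3 and 15.8 CPM in Fes KO 1 to 5, and at 22.6, 7.76, 32.9, 16.4 and 11.4 CPM in Fes WT 1 to 5. It spanned 6.99-fold over the tumours, with 0.80 (SE 0.44, edgeR adjusted p = 0.595). Rrm1, the large subunit, is present for longer in the cycle and spanned less. It was at 66.1, 101, 81.7, 61.9 and 48.5 CPM in Fes KO 1 to 5, and at 56.5, 37.0, 87.2, 68.4 and 43.5 CPM in Fes WT 1 to 5, a 2.72-fold range with 0.29 (SE 0.26, edgeR adjusted p = 0.74).

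Brca1, which acts in homologous repair of replication damage, was at 11.5, 16.6, 13.1, 6.21 and 5.03 CPM in Fes KO 1 to 5, and at 6.33, 3.44, 11.2, 7.08 and 2.36 CPM in Fes WT 1 to 5. Fes KO 1, 2 and 3 lay above every Fes WT tumour, Fes KO 4 and 5 within their range, and the log2 fold change was 0.78 (SE 0.45, edgeR adjusted p = 0.607). Tyms, the enzyme of thymidylate synthesis, had 0.40 (SE 0.28).

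Mitotic members differed more between tumours of 1 group than between the groups. Their median within-group SD was 0.78 on the log2 scale, against 0.53 for S phase members. Mki67 (ENSMUSG00000031004, chromosome 7, 135689784 to 135716361), which coats mitotic chromosomes and marks cycling cells, was at 92.4, 176, 102, 49.4 and 59.0 CPM in Fes KO 1 to 5. In Fes WT 1 to 5 it was at 82.4, 30.9, 145, 54.2 and 29.9 CPM. The Fes KO range of 49.4 to 176 CPM overlapped the Fes WT range of 29.9 to 145 CPM, and the log2 fold change was 0.48 (SE 0.49, edgeR adjusted p = 0.779). The highest 2 tumours were Fes KO 2 and Fes WT 3, 1 in each group. Without Fes KO 2 the log2 fold change was 0.13, and without Fes WT 3 it was 0.95, with an adjusted p of at least 0.477 in every fit that left out 1 tumour.

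For entry into mitosis, Ccna2, the cyclin of S phase and G2, was at 35.7, 73.1, 46.8, 22.0 and 27.8 CPM in Fes KO 1 to 5, and at 34.5, 14.6, 65.6, 21.1 and 13.0 CPM in Fes WT 1 to 5. Foxm1, a transcription factor of the mitotic wave, was at 33.7, 56.5, 38.9, 23.9 and 24.2 CPM in Fes KO 1 to 5, and at 33.2, 17.2, 45.4, 22.0 and 13.3 CPM in Fes WT 1 to 5. Both were again highest in Fes KO 2 and Fes WT 3 and lowest in Fes WT 5, with log2 fold changes of 0.46 (SE 0.48) and 0.44 (SE 0.36). Ccnb1 and Ccnb2, the B cyclins that drive mitosis with Cdk1, spanned 6.70-fold and 4.38-fold. Cdk1 and Plk1, the kinases of mitotic entry, had 0.39 (SE 0.46) and 0.41 (SE 0.46).

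Of the spindle and chromosome genes, Aurkb, the kinase of the chromosomal passenger complex, was at 16.5, 30.9, 18.7, 10.5 and 11.7 CPM in Fes KO 1 to 5, and at 15.5, 6.43, 24.2, 10.1 and 5.79 CPM in Fes WT 1 to 5. Its log2 fold change was 0.51 (SE 0.43, edgeR adjusted p = 0.734). Its partner Birc5 (survivin) had 0.50, the spindle kinase Aurka 0.40 and its activator Tpx2 0.47. The motor genes Kif11 and Kif20a had 0.54 and 0.19, and the midzone and microtubule genes Prc1 and Nusap1 0.28 and 0.26. Cenpf, a kinetochore gene, had 0.25, and Top2a, the topoisomerase that separates sister chromatids, 0.44. The SE of these 10 genes lay between 0.41 and 0.53, close to the size of the largest value. Kif20a was the 1 mitotic member in which Fes WT 3, at 30.1 CPM, exceeded Fes KO 2, at 28.7 CPM.

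Genes of the spindle checkpoint and its release also had Fes KO 2 and Fes WT 3 highest. Bub1, a checkpoint kinase, was at 11.3, 26.3, 14.1, 6.67 and 7.72 CPM in Fes KO 1 to 5, and at 10.1, 3.75, 19.9, 8.12 and 3.51 CPM in Fes WT 1 to 5, a 7.51-fold range that was the widest of the 43 members. Cdc20, the activator of the anaphase-promoting complex, was at 22.1, 46.0, 20.9, 12.9 and 18.6 CPM in Fes KO 1 to 5, and at 21.2, 8.72, 42.1, 11.3 and 8.77 CPM in Fes WT 1 to 5. Their log2 fold changes were 0.54 (SE 0.53) and 0.39 (SE 0.50), and Bub1b, whose product holds Cdc20 in check, had 0.43 (SE 0.46). Cdc20 shares bases with the lipid gene Elovl1, with 11595 counts against 3284, and 9 further members (Cdk2, Ccnd3, Cdk4, Ccne2, Mcm7, Ccna2, Kif20a, Prc1 and Nusap1) share bases with a gene of at least 5% of their counts, so their counts are uncertain where strand was not used.

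S phase and mitotic members were then set against each other tumour by tumour. The mean log2 CPM of the S phase members was 4.73, 5.22, 5.02, 4.37 and 3.73 in Fes KO 1 to 5, and 4.203, 3.59, 4.67, 4.37 and 3.78 in Fes WT 1 to 5. That of the mitotic members was 4.60, 5.59, 4.72, 3.91 and 4.22 in Fes KO 1 to 5, and 4.56, 3.38, 5.37, 3.89 and 3.21 in Fes WT 1 to 5. Both classes were low in Fes WT 2 and Fes WT 5 and high in Fes KO 2. The mitotic minus S phase difference was positive in 4 tumours, at 0.70 in Fes WT 3, 0.49 in Fes KO 5, 0.37 in Fes KO 2 and 0.36 in Fes WT 1. It lay between -0.57 and -0.14 in the other 6. The classes hold different genes with levels of their own, so the sign in 1 tumour has no meaning by itself. Only differences between tumours can be read. The groups overlapped in this difference, with means of -0.01 ± 0.42 in Fes KO and -0.04 ± 0.55 in Fes WT (SD, 5 tumours each). The medians of the fold changes differed by -0.13, mitotic minus S phase, and that sign turned in 6 alternative fits, so the data rank neither class above the other.

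**Figure D3:**
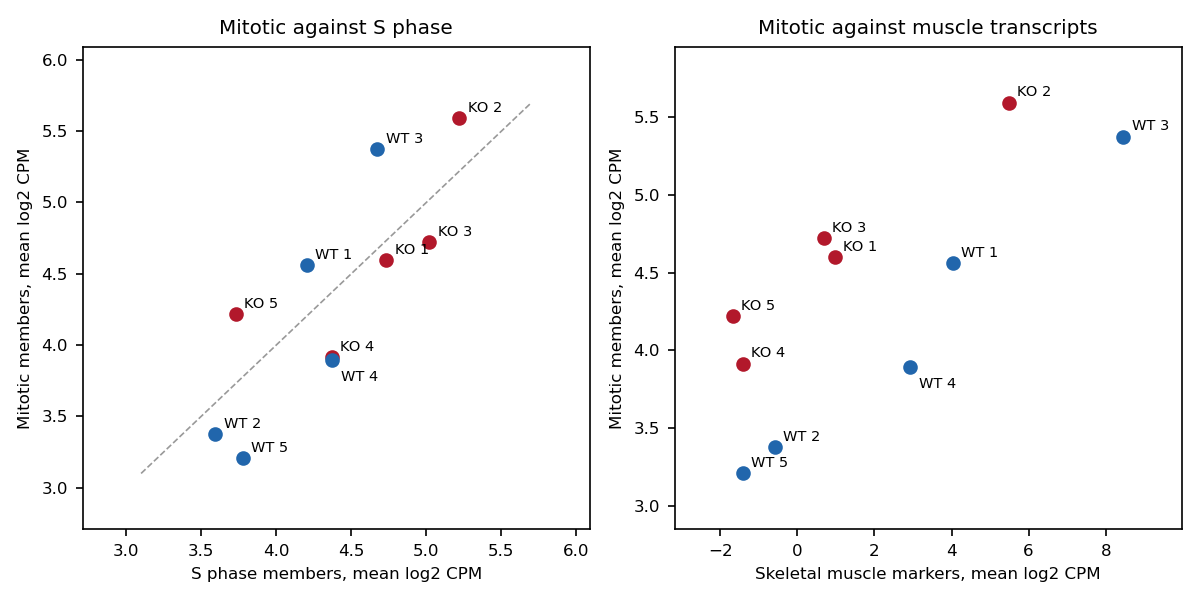
Mean log2 CPM of the 20 mitotic members (y axes) against that of the 18 S phase members (left, dashed line at equal values) and of 15 skeletal muscle markers (right), 1 point per tumour, red Fes KO and blue Fes WT. Fes WT 3, Fes KO 5, Fes KO 2 and Fes WT 1 lie above the line on the left, which is a guide to the eye only. On the right Fes KO 2 and Fes WT 3 are highest on both axes.

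The mitotic pattern went with hair follicle transcripts in 2 tumours. Hair shaft and root sheath genes are expressed in the growing follicle, which also holds rapidly dividing matrix cells. The 23 hair follicle markers in the table (of 24 listed) summed to 19770 CPM in Fes KO 2, 1.98% of the adjusted library size, and to 1464 CPM in Fes WT 3. In the other 8 tumours the sum was 40.4 to 175 CPM, of which Crym, which many tissues express, gave 35.0 to 173 CPM. The root sheath keratin Krt71, for example, was at 4348 CPM in Fes KO 2, 308 CPM in Fes WT 3 and at most 1.05 CPM elsewhere, and the root sheath protein gene Tchh at 5924, 326 and at most 2.03 CPM. All 23 markers were detected in both of these tumours.

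These were the 2 highest tumours for 20 of 20 mitotic members, but for 1 of 18 S phase members (Rrm1) and 0 of 5 G1 genes. Over all tested genes they were the 2 highest for 8.46%. In S phase members Fes KO 3, with hair markers at a mean log2 CPM of -1.49, stood beside Fes KO 2, being among the highest 2 for 16 of 18. The tumours fall into separate clusters by hair follicle content, so no correlation with Mki67, Pcna or Ccnd1 was computed, and the relation cannot be tested within the 8 tumours near 0. Whether hair follicle cells gave any of the cell cycle reads was not tested.

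Leaving out both tumours, an alternative chosen after seeing the data, gave medians of 0.50 for S phase and 0.56 for mitotic members with 0 of 43 called, where 0.135% of genes were. With hair follicle content as a term in the fit the medians were 0.47 and 0.34, again with 0 called, where 0.216% of genes were. Fes KO 2 and Fes WT 3 lie in opposite groups and, left out singly, moved the median in opposite directions. Without Fes KO 2 alone the mitotic median was 0.06, and without Fes WT 3 alone it was 0.89, whereas the S phase medians were 0.36 and 0.69. The mitotic median was also lower without Fes WT 2, at 0.29, and without Fes WT 5, at 0.26.

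**Figure D4:**
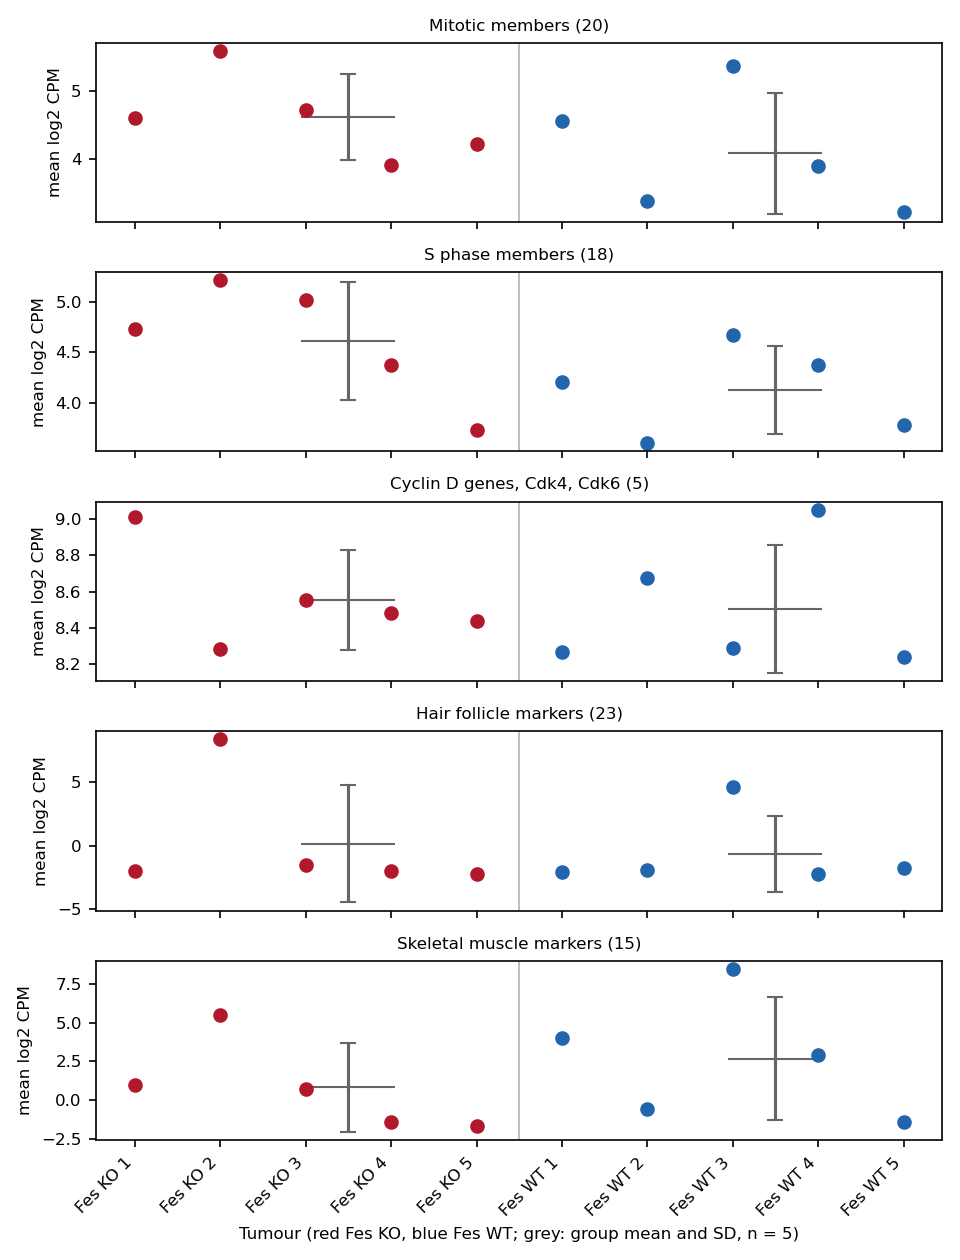
Mean log2 CPM (y axes) of the 3 classes of members and of the hair follicle and skeletal muscle markers in each tumour, with group mean and SD (grey, n = 5). Fes KO 2 and Fes WT 3 are highest for mitotic members, at 5.59 and 5.37, and for hair follicle markers, at 8.34 and 4.64.

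Skeletal muscle transcripts also moved with the mitotic members. The 15 muscle markers, contractile genes of fibres that no longer divide, had a mean log2 CPM of 0.98, 5.49, 0.70, -1.41 and -1.66 in Fes KO 1 to 5. In Fes WT 1 to 5 it was 4.03, -0.58, 8.46, 2.93 and -1.41. Their summed level ran from 4.37 to 2042 CPM in Fes KO and from 5.87 to 16730 CPM in Fes WT. Within Fes WT the order of the tumours was the same for muscle and for mitotic members, from Fes WT 3 down to Fes WT 5. Within Fes KO, Fes KO 2 was highest for both, but the order of the rest differed, with Fes KO 5 lowest in muscle and Fes KO 4 lowest in mitotic members. Across the 10 tumours log2 CPM of Mki67 and the muscle mean had Pearson r = 0.766 (permutation p = 0.01, adjusted 0.03 over 3 relations) and Spearman rho = 0.721 (p = 0.0226, adjusted 0.0654). Without Fes KO 2 and Fes WT 3, the farthest from the median, r was 0.522 over 8 tumours (exact permutation p = 0.181, adjusted 0.456) and rho 0.476 (exact p = 0.243, adjusted 0.365), so the relation did not pass the test without them. Pcna had r = 0.563 (permutation p = 0.0868, adjusted 0.13) and rho = 0.661 (p = 0.0436, adjusted 0.0654), and Ccnd1 r = -0.323 (p = 0.364, adjusted 0.364) and rho = -0.37 (p = 0.298, adjusted 0.298). Without the same tumours their r was 0.422 and 0.0938 (exact permutation p = 0.304 and 0.814). These relations were computed after the data were seen.

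With muscle content as a term, the fit called 17 of 43 members, all higher in Fes KO, where 0.688% of all genes were called higher. The 17 were 15 of 20 mitotic members and, of the S phase members, Rrm2 and Brca1. Mki67 then had a log2 fold change of 1.06 (SE 0.12, edgeR adjusted p = 0.00877) and Bub1 1.16 (SE 0.14, adjusted p = 0.00898). All 20 mitotic members lay above 0 with a median of 0.92, and the 18 S phase members with 0.76. Cyclin D genes were not among the calls, with -0.14 as the median of the 5 G1 genes. At an equal muscle level the Fes KO tumours thus had the higher mitotic level in that fit, but the term was measured in the same libraries as the members, its mean was 0.82 ± 2.87 in Fes KO and 2.69 ± 3.96 in Fes WT (SD, 5 tumours each), and no other alternative fit called any member. Fes WT 3 and Fes KO 2 had the highest muscle means, 8.46 and 5.49, and the fit with this term was not repeated without them. What joins muscle content and mitotic genes was not tested.

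Leaving out the 3 Xist-expressing tumours turned the direction for the mitotic members, whereas Xist status as a term in the fit did not. The Xist-expressing tumours Fes KO 1 and Fes KO 2 had mitotic means of 4.60 and 5.59, and Fes WT 5 had 3.21, the lowest of all. Among the 7 others the Fes KO means were 4.72, 3.91 and 4.22 and the Fes WT means 4.56, 3.38, 5.37 and 3.89. A fit to those 7 put 0 of 20 mitotic members above 0, with a median of -0.16, and 17 of 18 S phase members above 0 with a median of 0.17. Mki67 was at -0.16 (SE 0.51, edgeR adjusted p = 0.936) in that fit, and 0 of 43 members were called, where 0.424% of genes were. Those 3 tumours include Fes KO 2, the highest in mitotic members. Without Fes KO 2 alone the mitotic median was 0.06, with 15 of 20 members above 0. Without Fes KO 1 alone it was 0.47, and without Fes WT 5 alone 0.26, each with 20 of 20 above 0. Removing any 1 of the 3 thus did not turn the median, and what turned it was not tested. With Xist status as a term over all 10 tumours, the medians were 0.34 and 0.44 for mitotic and S phase members and every one of the 38 lay above 0. The Xist-expressing tumours number 2 against 1, too few for a fit of their own.

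**Figure D5:**
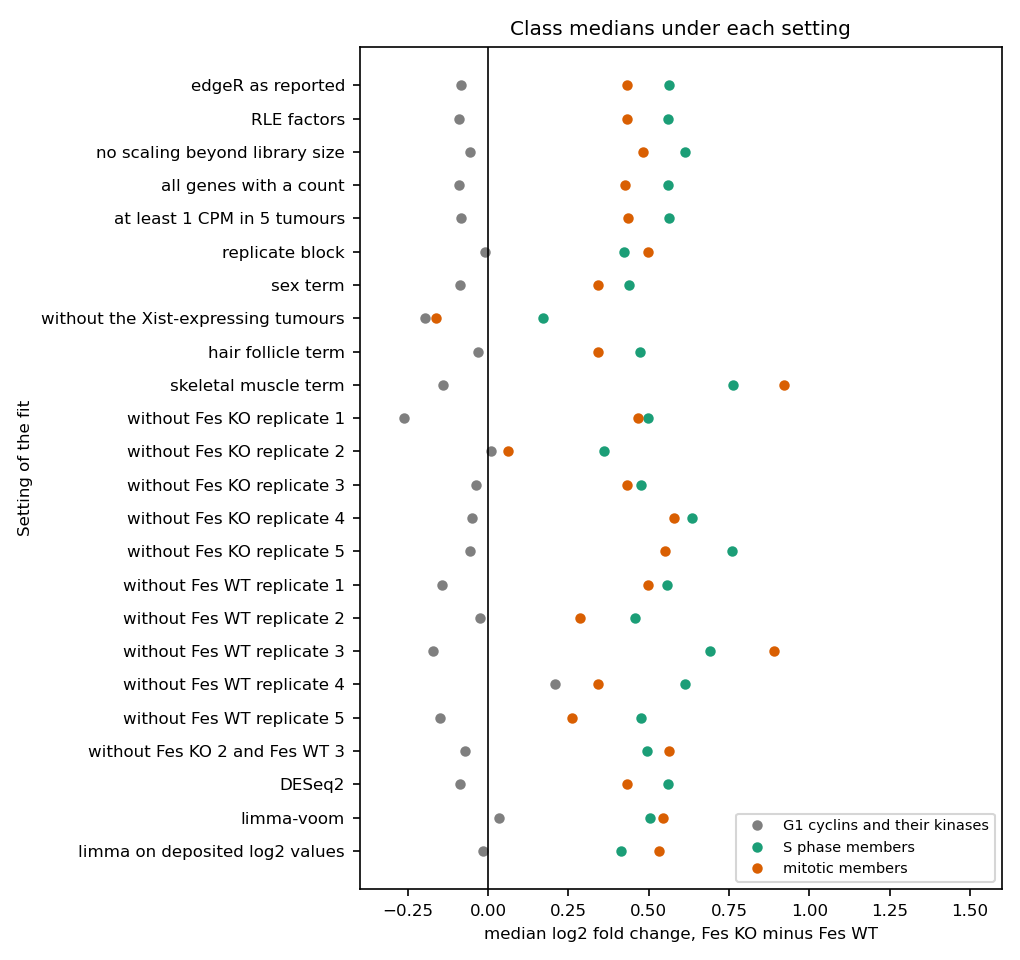
Median log2 fold change, Fes KO minus Fes WT (x axis), of the 3 classes under each setting of the fit (y axis). The mitotic median runs from -0.16 without the Xist-expressing tumours to 0.92 with the muscle term, and the S phase median stays between 0.17 and 0.76.

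Immune and stromal content differed between tumours too. All 12 macrophage markers were detected in every tumour and summed to 925 to 2223 CPM in Fes KO and 1484 to 3544 CPM in Fes WT. The 13 T and NK cell markers were low, with 9 to 13 of them detected and a sum of at most 25.01 CPM in Fes KO and 15.8 to 47.3 CPM in Fes WT. B and plasma cell markers summed to at most 16.6 CPM. Fibroblast markers summed to 34950 to 59540 CPM in Fes KO and 31400 to 53380 CPM in Fes WT. Endothelial markers summed to 218 to 521 CPM in Fes KO and 251 to 344.5 CPM in Fes WT. Keratinocyte markers summed to 6437 CPM in Fes KO 2, 229 CPM in Fes WT 5, 175 CPM in Fes WT 3 and at most 19.4 CPM elsewhere. The part of these cell types in the member levels was not tested.

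Other genes of the same pathways also had 0 calls in edgeR, which called 0.175% of all tested genes. Lists of this size with 0 calls lie near that share. Over all tested genes 52.4% lay above 0, with a median of 0.01. Of 52 tested replication genes (of 53 listed), 0 were called, 47 lay above 0 and the median was 0.30. The 3 with the lowest p were Orc1, the origin recognition subunit, at 0.91 (SE 0.33, edgeR adjusted p = 0.423), Rfc5, a subunit of the clamp loader, at 0.32 (SE 0.12, adjusted p = 0.436), and Pold1, the catalytic subunit of polymerase delta, at 0.54 (SE 0.21, adjusted p = 0.468). Of 60 further mitotic genes 0 were called, 58 lay above 0 and the median was 0.39. Mybl2, which encodes B-Myb, had 0.96 (SE 0.43, adjusted p = 0.518), Cenpn, a centromere gene, 0.60 (SE 0.30, adjusted p = 0.568) and Cdca5, the cohesin protector sororin, 0.84 (SE 0.44, adjusted p = 0.577). By tumour these 60 genes had their highest means, 4.70 and 4.46 log2 CPM, in Fes KO 2 and Fes WT 3 as the members did.

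The 18 genes of the Rb, E2F and DREAM proteins hold the members in check or switch them on. Their median was 0.11 with 13 above 0, where 52.4% of all tested genes lay above 0. In edgeR 0 were called, where 0.175% of all tested genes were. E2f3, an activating E2F, was at 29.6, 36.3, 38.1, 29.4 and 30.8 CPM in Fes KO 1 to 5, and at 25.6, 22.5, 28.2, 21.7 and 21.3 CPM in Fes WT 1 to 5. Every Fes KO tumour lay above every Fes WT tumour for E2f3, as for 0.783% of all tested genes. How many of the other pathway genes separated the groups in this way was not counted. The log2 fold change of E2f3 was 0.46 (SE 0.12, edgeR adjusted p = 0.236), which does not pass in edgeR. Tfdp1, the E2F partner, had 0.22 (SE 0.10, adjusted p = 0.515) and the repressor E2f7 0.81 (SE 0.43, adjusted p = 0.586). DESeq2 called E2f3 (adjusted p = 0.0199), 1 of 131 genes of these 3 lists that it tested, where it called 1.7% of all genes. The fit with the muscle term called 36 of 130, all higher in Fes KO, where 0.688% of all genes were called higher.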

How the data were processed

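RNA of 10 tumours was measured by sequencing, with groups and replicate numbers taken from the sample titles. A further allele that both groups share is not reported here. The authors deposited raw counts of reads by gene, and beside them log2 values. Per the submitters' processing notes, the tools were STAR (2.51b), Subread (1.4.6) and FastQC, on GRCm38, also written mm10. Settings, strand included, are not given in these sources. The deposited log2 values equal the log2 of the count over a size factor plus 1. No 2 tumours had identical counts, and every column was used.

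Counts were tested with edgeR version 4.0.16 (R version 4.3.3) by filterByExpr with the group, TMM, a quasi-likelihood fit of the group and a 2-sided test. P-values were adjusted by Benjamini-Hochberg over 14816 genes, with a threshold of 0.05. They set the difference between the groups against the spread between tumours of a group, as edgeR estimates it. Lists are described by counts and medians. Each list's level in a tumour averages its genes' log2 CPM (prior count 2). Alternatives used DESeq2 version 1.42.0, limma version 3.58.1 (voom with quality weights, and the deposited log2 values), other scaling and filters, the replicate number as a block, terms for Xist, hair follicle and muscle, and leaving out tumours. The Xist term splits tumours at 10 CPM. Exon lengths, overlaps and positions come from GENCODE M21 (GRCm38). Correlations used 100000 permutations, 2-sided. The edgeR script was tested on simulated data.

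The members and lists were chosen with earlier results of these data known. Values in every tumour are given for Mki67, Pcna and Ccnd1, for the member of each role with the lowest p and that with the highest CPM, and for the 3 largest and 3 smallest fold changes. Of other lists the 3 genes with the lowest p are named. Further genes given by value were chosen after their values were seen.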

Additional observations from a re-analysis of the deposited data

Results flagged for a closer look

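Of 44 groups of 5 tumours checked (18 members and 4 list means in each group), 4 had a tumour far from the others. This was by Dixon's test at its 95% critical value of 0.71, where chance gives about 1 in 20 for a single group. The members vary together and some were chosen by their values, so the 4 cannot be weighed against that share. Ccnd3 stood at 638.8 CPM in Fes KO 1, with the other Fes KO tumours at 280.0 to 370.2 CPM, and at 699.9 CPM in Fes WT 4, with the others at 317.6 to 409.6 CPM. Ccnd2 stood at 1036 CPM in Fes WT 4, where the others had 443 to 608 CPM. Cdc20 stood at 46.0 CPM in Fes KO 2, where the others had 12.9 to 22.1 CPM.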

How the results depend on the processing

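Over 23 alternative fits no member was called except with the muscle term, which called 17 members, 36 genes of the other pathway lists and 150 genes in all. The count of all genes called was 4 with the replicate block, 64 without the Xist-expressing tumours, 295 with DESeq2, 115 with limma-voom, 1425 at an unadjusted p below 0.05 (1 member), and 10 to 54 with 1 tumour left out (10 without Fes KO 1 or Fes KO 3, 12 without Fes KO 5, 15 without Fes WT 1, 11 without Fes WT 2, 16 without Fes WT 4, 54 without Fes WT 5). DESeq2 called 1 gene of the other pathway lists.

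The mitotic minus S phase difference of medians turned from -0.13 to 0.0756 with the replicate block, 0.16 with the muscle term, 0.0669 without Fes KO 2 and Fes WT 3, 0.0416 with limma-voom and 0.12 with limma on the deposited values, and ran from -0.30 to 0.20 with 1 tumour left out. Without the Xist-expressing tumours the median of all members was -0.0466 and of mitotic members -0.16, with Aurkb at -0.0466, Bub1 -0.14, Ccna2 -0.0801, Cdc20 -0.26, Foxm1 -0.0228 and Mki67 -0.16. The G1 median was 0.035 with limma-voom, where Ccnd1 was its middle gene, and ran from -0.26 to 0.21 with 1 tumour left out (Ccnd1 from -0.33 to 0.22, Ccnd2 from -0.26 to 0.13, Ccnd3 from -0.31 to 0.17). The cause of these changes was not tested. CHR letters stood in 7 mitotic genes with the bases before the start alone.

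Same-numbered tumours of the groups deviated together with correlations of -0.378 to 0.172, so the numbers do not pair them, and none correlated best with its own number. The lowest count of a member in a tumour was 31, and what limits the calls was not tested.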
